A study of Mus musculus with 9 samples.

Results

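The nuclear-encoded subunits of oxidative phosphorylation (OXPHOS) were followed in the hippocampus of C57BL/6 mice by RNA-seq. The rule took genes by symbol, as Nduf followed by a, b, c, s or v and a digit, Sdha to Sdhd, Cyc1, Uqcr, Cox4 to Cox8, or Atp5. It found 89 members among the 22173 genes listed, 41 of complex I, 4 of complex II, 9 of complex III, 18 of complex IV and 17 of complex V. Of these, 88 had values and 84 passed the filter on low values (1 FPKM or more in 3 or more libraries), which left 13062 genes in all. Ndufab1, the acyl carrier subunit of complex I, and the Ndufaf assembly factors are not taken by this rule.

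The 9 libraries fell into 3 groups of 3. Middle-aged quercetin mice (10 months) received quercetin, a plant flavonol, in PBS with 10% DMSO, and middle-aged control mice (10 months) and young control mice (8 weeks) received PBS with 10% DMSO. The mice were female and were injected through the tail vein every other day. The labels give 24 days of treatment, whereas the paper describes a longer course for its behaviour experiment, so the duration for these mice is uncertain. The labels do not say whether each library came from a separate mouse or from pooled tissue, and the p-values therefore reflect only how far these libraries differ from one another. All 3 groups received the solvent.

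Oxidative phosphorylation makes most of the ATP of neurons. Complexes I and II pass electrons from NADH and succinate to ubiquinone, complex III passes them to cytochrome c and complex IV to oxygen, and complex V (ATP synthase) uses the proton gradient to make ATP. Each complex holds a small catalytic core and, apart from complex II, many small accessory subunits. A few subunits of complexes I, III, IV and V are encoded in mitochondrial DNA and were not analysed here. Many nuclear promoters of this group are known to carry sites for the transcription factors NRF1, GABP (an ETS family factor) and YY1.

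Promoter sequences were taken from RefSeq (GRCm38.p6), which gave a window of 300 bases for 70 of the 89 members, 250 before and 50 after the start of transcription. The NRF1 string GCATGCGC, searched on both strands, was found in 10 of the 70 (14.3%), against 3.05% of 27025 genes. These 27025 are all genes with a window, whether or not expressed in these libraries, so they are unlike the members in expression. The ETS string CCGGAAGT was found in 5 members (7.14%), against 4.31% of genes, and the YY1 string AAGATGGCG in 7 members (10.0%), against 1.64%. A gene with several matches was counted once, and NRF1 matches on both strands can overlap because the string is nearly its own reverse complement. Of the 70 members, 21 (30.0%) held at least 1 of the 3 strings, against 8.47% of genes. These are matches of letters and not measured binding.

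The stretches of 150 bases below, from 140 before to 10 after the start, show a short member among those with the largest quercetin difference, with the NRF1 string (Atp5k), a member near 0 with the same string (Sdhb), a member with both the NRF1 and the ETS string (Uqcr11), and Ndufa1, described below, with none of the 3 strings in its window. Capitals mark the matches. They come from chr5:108434390-108434539 (minus strand), chr4:140961131-140961280 (plus strand), chr10:80406812-80406961 (minus strand) and chrX:37191229-37191378 (minus strand), in the order Atp5k, Sdhb, Uqcr11 and Ndufa1.
Atp5k: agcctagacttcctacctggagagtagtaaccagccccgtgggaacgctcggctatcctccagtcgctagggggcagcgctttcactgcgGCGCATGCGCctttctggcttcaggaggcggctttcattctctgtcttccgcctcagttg
Sdhb: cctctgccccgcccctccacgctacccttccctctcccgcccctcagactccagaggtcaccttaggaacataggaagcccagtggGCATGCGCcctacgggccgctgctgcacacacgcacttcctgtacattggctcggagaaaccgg
Uqcr11: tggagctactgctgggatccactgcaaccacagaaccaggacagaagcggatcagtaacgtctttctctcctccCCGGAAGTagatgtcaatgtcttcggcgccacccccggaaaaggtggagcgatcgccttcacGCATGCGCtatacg
Ndufa1: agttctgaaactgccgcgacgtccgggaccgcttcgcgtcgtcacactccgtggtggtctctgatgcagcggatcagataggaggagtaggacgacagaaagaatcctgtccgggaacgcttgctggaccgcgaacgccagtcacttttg

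The authors computed FPKM, in which fragment numbers are corrected for the length of each gene and the size of each library. No read counts were used, so the depth behind each value is unknown. The FPKM of all genes summed to between 325192 and 338861 per library, and the 84 members took 2.47% to 2.81% of it, with the lowest share in middle-aged control 1. Transcripts of the choroid plexus, a tissue beside the hippocampus, stood out in middle-aged quercetin 2 and young control 3, where 10 markers summed to 960.3 and 2477 FPKM, against 7.59 to 36.6 FPKM in the other 7 libraries. Markers of hippocampal neurons such as Prox1 and Neurod6 were found in every library, and their levels by group are given with the quercetin comparison. In middle-aged control 1, 74 of the 84 members were below their own mean over 9 libraries. Medians over the members and their subgroups, other than those by promoter string, are also given without this library.

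Subunits of complex V and the ubiquitous subunits of complex IV were the most abundant per length. By complex, the median of the members' mean FPKM was 57.02 for complex I, 59.23 for complex II, 94.49 for complex III, 125.6 for complex IV and 155.5 for complex V. Atp5b, the catalytic beta subunit of ATP synthase, had the highest mean (520.0 FPKM), and Cox4i1, the common form of subunit 4 of cytochrome c oxidase, was the highest of complex IV (443.0 FPKM). The highest of the other complexes were Ndufa4 (245.0 FPKM), Sdha, the flavin-bearing subunit of succinate dehydrogenase (144.0 FPKM), and Uqcrh, the hinge protein of complex III (141.0 FPKM). Ndufa4 is counted here with complex I by its symbol, although its protein is known to sit in complex IV. Of the 84 members, 79 averaged 10 FPKM or more and 30 averaged 100 FPKM or more.

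**Figure D1:**
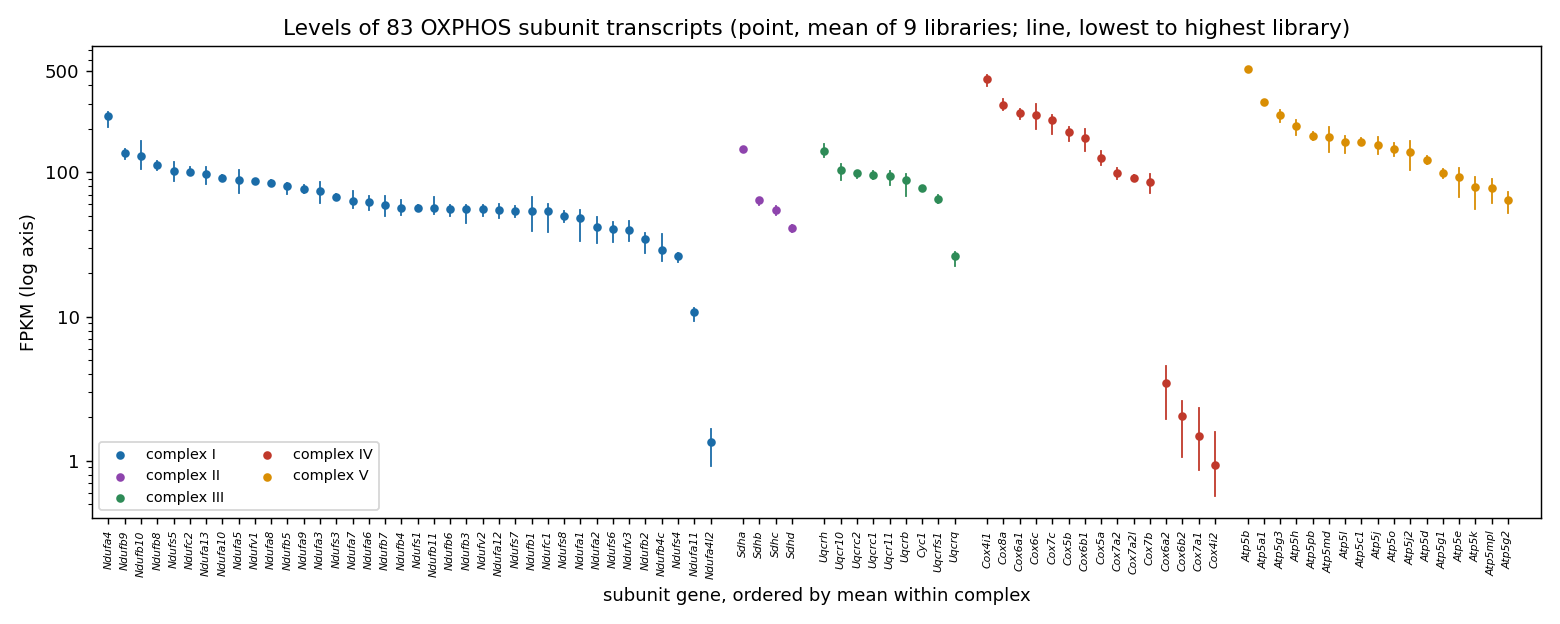
FPKM (log axis) of 83 subunit genes, ordered by mean within complexes I to V; points are means of 9 libraries and lines run from the lowest to the highest library. The 5 genes below 10 FPKM are Ndufa4l2, Cox6a2, Cox6b2, Cox7a1 and Cox4i2, and Atp5b is the highest, at 520.0 FPKM.

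The tissue-restricted isoforms were far below their common partners. Cox4i2, the isoform of lung and of low oxygen, lay between 0.57 and 1.58 FPKM, which was 0.131% to 0.344% of Cox4i1 in the same library. The muscle isoforms Cox6a2 (1.95 to 4.56 FPKM) and Cox7a1 (0.86 to 2.34 FPKM) reached at most 1.86% of Cox6a1 and 2.46% of Cox7a2. Cox6b2, the testis isoform, lay between 1.07 and 2.58 FPKM, at most 1.52% of Cox6b1. Ndufa4l2, known as a target of hypoxia signalling, lay between 0.92 and 1.67 FPKM, at most 0.757% of Ndufa4. All of these isoforms stood near the filter, where the log2(FPKM + 1) scale understates a change.

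Cox7b2 (0.11 to 0.45 FPKM, partner Cox7b), Cox8b (0 to 1.21 FPKM, partner Cox8a), Ndufb4b (above 0 in middle-aged control 1 and young control 3 only, at 0.76 and 3.21 FPKM) and Ndufs6b (at most 0.28 FPKM) did not pass the filter. Cox8c, the testis form of subunit 8, had no value. Cox7a2l, which is known to join complexes III and IV into supercomplexes, lay between 87.1 and 95.7 FPKM. Ndufb4c had 24.3 to 37.1 FPKM, 41.4% to 73.8% of Ndufb4, and because these copies are nearly identical the split of reads between them is uncertain. RefSeq also lists 14 pseudogenes named for 9 of the members.

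The c-ring of ATP synthase, through which the protons pass, is built from 1 protein encoded by 3 genes. Atp5g3 made up 58.5% to 62.1% of their summed FPKM, Atp5g1 22.6% to 26.2% and Atp5g2 14.1% to 17.7%, so the order of the 3 genes was the same in all 9 libraries. Atp5g2 had 73.5, 65.6 and 67.8 FPKM in middle-aged quercetin mice, against 52.1, 63.8 and 67.2 FPKM in middle-aged control mice. These ranges overlapped, and the difference was 0.18 ± 0.09 on the log2 scale (SE, n = 3 each; limma adjusted p = 0.4864), or 0.07 ± 0.07 for Atp5g2 without middle-aged control 1.

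Quercetin-treated against control middle-aged hippocampus asked whether treatment changed the levels of these subunits. Most fitted differences lay slightly above 0 and none passed the test. With limma on log2(FPKM + 1) over all 13062 genes, 0 of 84 members were called higher and 0 lower (Benjamini-Hochberg adjusted p under 0.05), where 0.138% of all genes were called higher and 0.0306% lower. At an unadjusted p under 0.05, 30 members were higher, against 6.98% of all genes, and 1 was lower, against 4.69%. The fitted difference was above 0 for 69 members (82.1%, against 53% of all genes) and below 0 for 15 (17.9%, against 47%), with a median of 0.09 log2, against 0.01 over all genes. In bulk tissue, a different share of cells rich in these transcripts and a different amount per cell cannot be told apart.

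Markers of cell types were set beside this comparison, and 0 of those below were called (limma). The 8 markers of hippocampal neurons summed to 256.9 to 277.1 FPKM in middle-aged quercetin mice, against 278.9 to 311.4 FPKM in middle-aged control mice and 281.7 to 283.1 FPKM in young control mice. The fitted quercetin difference was below 0 for all 8, from -0.24 to -0.04 log2 with a median of -0.12 (-0.18 without middle-aged control 1), and 0 were called (limma). The 4 tested of 5 red cell markers summed to 22.3 to 87.3 FPKM in middle-aged quercetin mice, against 78.8 to 107.1 FPKM in middle-aged control mice and 14.3 to 107.5 FPKM in young control mice. They had a median quercetin difference of -0.73, with middle-aged quercetin 2 and young control 1 far below the other libraries. Medians were nearer 0 for markers of neurons in general (-0.02, range -0.11 to 0.14), astrocytes (0.02, range -0.05 to 0.11) and oligodendrocytes (0.05, range 0.01 to 0.07). The same held for markers of microglia (-0.04, range -0.15 to 0.12), endothelium (-0.01, range -0.28 to 0.31) and thalamus (0.06, range 0.01 to 0.33). The fitted difference was thus above 0 for all 6 thalamus markers and all 5 oligodendrocyte markers. The thalamus median was 0.09 without middle-aged control 1. The part of these cells in the members' differences was not tested.

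Middle-aged control 1 weighed on this comparison. It was the lowest of the 9 libraries for 63 of the 84 members (75%), against 15.3% of all genes tested, and the highest for none. The median deviation of the members from each gene's mean over 9 libraries was 0.02, 0.04 and 0.06 log2 in middle-aged quercetin 1, 2 and 3, and -0.15, -0.01 and -0.01 in middle-aged control 1, 2 and 3. In young control 1, 2 and 3 it was -0.00, 0.08 and -0.02. The deficit in middle-aged control 1 was seen in all complexes, with a median of -0.16 for complex I, -0.07 for complex II, -0.15 for complex III, -0.15 for complex IV and -0.21 for complex V. Without this library the median quercetin difference of the members was 0.05 log2 and 0 members were called. In that fit 14 members (16.7%) were higher at an unadjusted p under 0.05, against 4.73% of all genes, and 3 (3.57%) were lower, against 3.8%. Without both libraries with choroid plexus transcripts the median was 0.09 and 0 were called, with 26 members (31%) higher at an unadjusted p under 0.05, against 4.97% of all genes, and 1 lower, against 3.78% (limma).

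**Figure D2:**
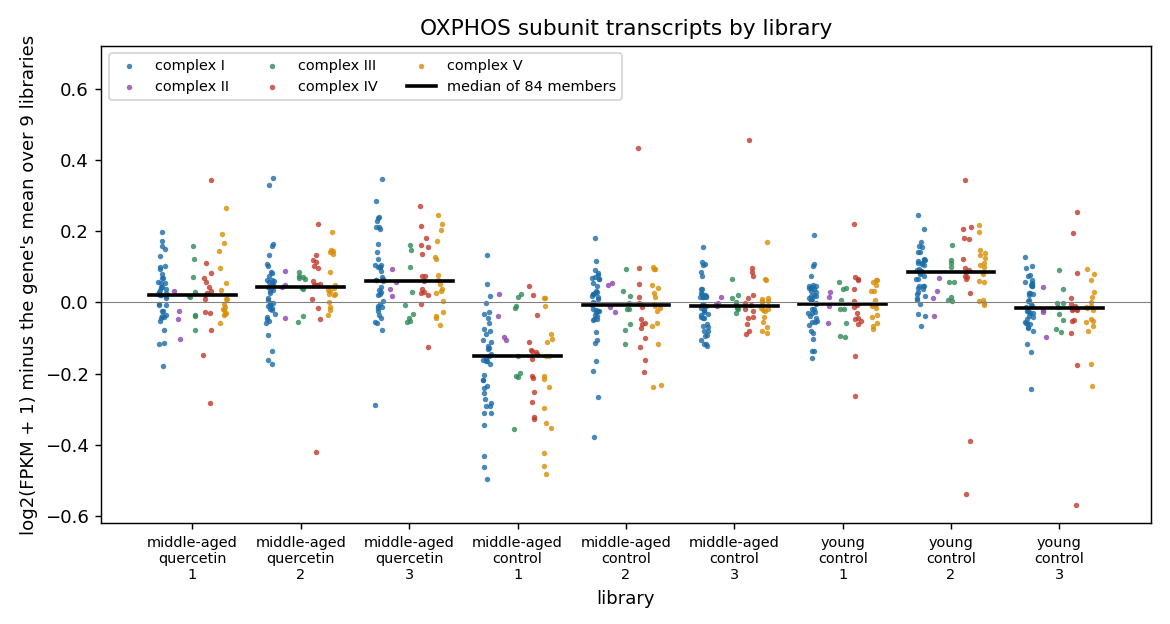
Deviation of log2(FPKM + 1) from each gene's mean over 9 libraries, for 84 members coloured by complex, in middle-aged quercetin, middle-aged control and young control libraries; black lines are medians. Middle-aged control 1 sits lowest, at a median of -0.15, and young control 2 highest, at 0.08.

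By complex, the median quercetin difference was 0.10 log2 for complex I (39 members), 0.04 for complex II (4), 0.05 for complex III (9), 0.09 for complex IV (15) and 0.09 for complex V (17). Without middle-aged control 1 these medians were 0.05, 0.01, 0.03, 0.10 and 0.05, so that all but that of complex IV were smaller and complex IV stood highest. The summed FPKM of complex I was 2786, 2794 and 2895 in middle-aged quercetin mice, against 2424, 2731 and 2712 in middle-aged control mice. That of complex V was 2993, 3026 and 3065 in middle-aged quercetin mice, against 2644, 2934 and 2904 in middle-aged control mice. Both sums were higher in every quercetin library than in every control library, with the gap widest to middle-aged control 1. The same held for complex III (811, 808 and 816, against 725, 774 and 786) and complex IV (2277, 2323 and 2378, against 1960, 2169 and 2256). The sums of complex II overlapped, at 301, 312 and 313 in middle-aged quercetin mice, against 295, 306 and 304 in middle-aged control mice.

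The levels of 21 members (25%) were higher in all 3 quercetin libraries than in all 3 middle-aged control libraries, against 8.97% of all genes, and those of 1 member were lower, against 7.35%. Of the 21, 10 belonged to complex I, 1 to complex II, 1 to complex III, 6 to complex IV and 3 to complex V.

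Ndufa1 (gene ID 54405, chrX:37187588-37191238 in GRCm38.p6) encodes a small accessory subunit in the membrane arm of complex I. It had 53.05, 53.23 and 55.09 FPKM in middle-aged quercetin mice, against 33.31, 39.25 and 47.92 FPKM in middle-aged control mice. The groups did not overlap, and the control libraries spread widely. The difference was 0.43 ± 0.10 log2 (SE, n = 3 each; limma adjusted p = 0.1293), and 0.30 ± 0.07 without middle-aged control 1 (limma adjusted p = 0.2784). Without middle-aged control 3, the control library nearest to the quercetin values, it was 0.56 ± 0.06 and passed the test (limma adjusted p = 0.01558). That fit called 10 of all genes tested in either direction, 3 of them members.

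Atp5md (gene ID 66477, chr19:47083471-47090647) encodes a small subunit of ATP synthase linked to the formation of its dimers. It had 197.51, 194.69 and 205.0 FPKM in middle-aged quercetin mice, against 137.46, 149.37 and 170.88 FPKM in middle-aged control mice. Every quercetin library was above every control library. The difference was 0.39 ± 0.08 log2 (SE, n = 3 each), with the smallest adjusted p of the members (limma, 0.0918). It was 0.32 ± 0.07 without middle-aged control 1 (limma adjusted p = 0.2784) and 0.47 ± 0.07 without middle-aged control 3 (limma adjusted p = 0.04005).

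Ndufb1 (gene ID 102631912, chr12:101968096-101975738) encodes another accessory subunit of the membrane arm. It had 57.17, 67.17 and 65.19 FPKM in middle-aged quercetin mice, against 39.27, 40.79 and 57.55 FPKM in middle-aged control mice. It had the largest fitted difference, 0.47 ± 0.12 log2 (SE, n = 3 each; limma adjusted p = 0.177), but middle-aged control 3 reached into the range of the quercetin libraries. Without that library the difference was 0.64 ± 0.07 and passed the test (limma adjusted p = 0.01538). Without middle-aged control 1 it was 0.37 ± 0.12 and did not pass (limma adjusted p = 0.4769).

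At the other end, Ndufs7, a core subunit of complex I that carries an iron-sulphur cluster, was the 1 member lower without overlap. It had 53.3, 49.21 and 52.57 FPKM in middle-aged quercetin mice, against 54.95, 57.82 and 58.75 FPKM in middle-aged control mice, a difference of -0.14 ± 0.05 log2 (SE, n = 3 each; limma adjusted p = 0.2765). The lowest fitted differences were those of the scarce isoforms Cox4i2 (-0.22 ± 0.16, limma adjusted p = 0.654, and -0.38 ± 0.16 without middle-aged control 1) and Ndufa4l2 (-0.19 ± 0.10, limma adjusted p = 0.5042). Both overlapped between the groups.

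**Figure D3:**
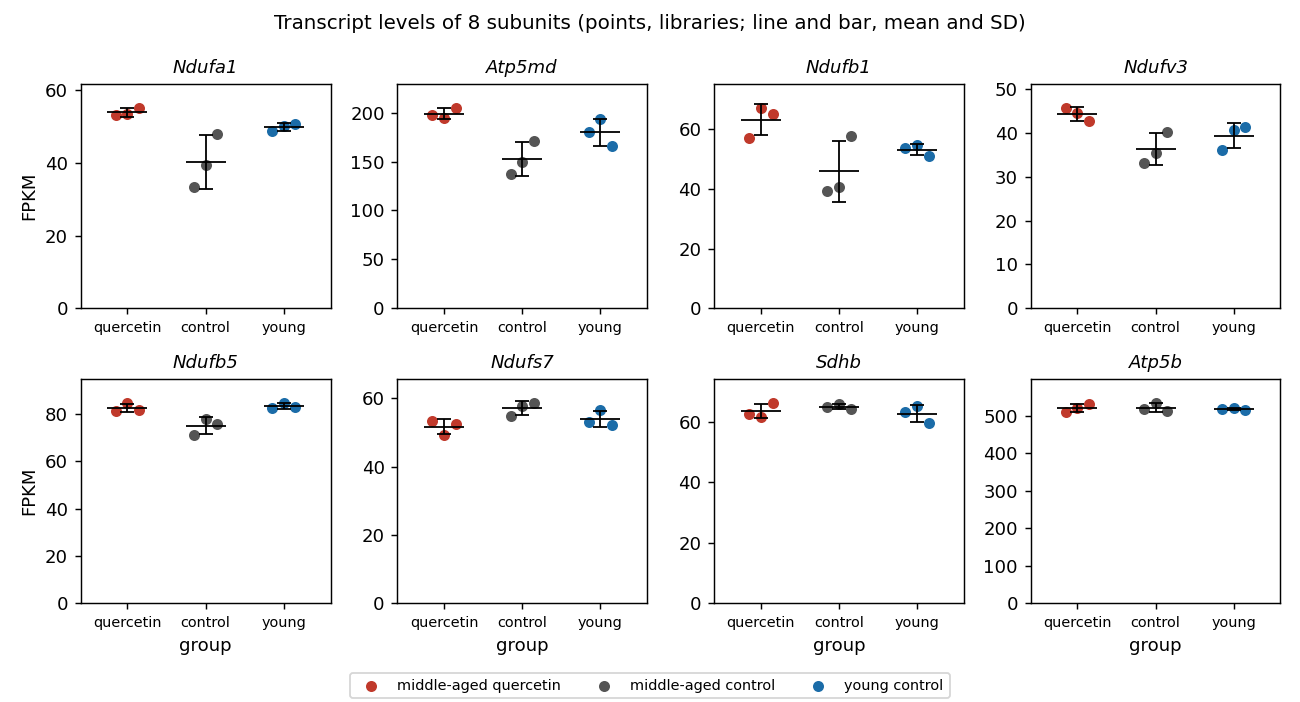
FPKM of 8 subunits in middle-aged quercetin (red), middle-aged control (grey) and young control (blue) libraries; points are libraries, lines and bars the mean and SD of 3. Ndufa1 spans 33.31 to 47.92 FPKM in the control libraries and 53.05 to 55.09 FPKM in the quercetin libraries, while Atp5b lies between 508.46 and 534.07 FPKM in all 9.

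The differences of a chosen list of catalytic and cofactor-bearing subunits were small. Over its 8 genes (Ndufs1, Ndufv1, Sdha, Sdhb, Uqcrfs1, Cyc1, Atp5a1 and Atp5b) the median quercetin difference was -0.01 log2, with a range from -0.04 to 0.05, against a median of 0.11 over the 75 reported members not on that list (0.07 without middle-aged control 1, against -0.01 for the 8). The list does not hold all cofactor-bearing subunits, and the 75 include Ndufs7 (above), Ndufs8 (0.11 ± 0.06 log2, limma adjusted p = 0.5077) and Ndufv2 (0.13 ± 0.05, limma adjusted p = 0.3408), which also carry iron-sulphur clusters of complex I. Of these, Ndufv2 was higher and Ndufs7 lower without overlap, outside the range of the 8. Atp5b had 508.46, 520.31 and 530.98 FPKM in middle-aged quercetin mice, against 516.43, 534.07 and 512.26 FPKM in middle-aged control mice. Sdhb, the iron-sulphur subunit of complex II, had 62.68, 61.81 and 66.39 FPKM in middle-aged quercetin mice, against 64.85, 65.98 and 64.4 FPKM in middle-aged control mice. Ndufs1, which holds iron-sulphur clusters of complex I, had 56.61, 56.5 and 57.77 FPKM in middle-aged quercetin mice, against 59.0, 59.6 and 54.47 FPKM in middle-aged control mice. These 3 genes overlapped between the groups, and their standard errors were 0.04 log2 each. Sdha, also on the list, was higher without overlap, by 0.05 ± 0.03 log2 (limma adjusted p = 0.602). It had 147.55, 149.29 and 146.22 FPKM in middle-aged quercetin mice, against 140.55, 143.25 and 144.07 FPKM in middle-aged control mice. Within complex I, 6 core subunits had a median of 0.05 log2, with a range from -0.14 to 0.13, and the 32 accessory subunits one of 0.11. With middle-aged control 1 left out, these medians were 0.04 and 0.07.

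The transcripts of these 8 listed genes are all longer than 1046 nt, so transcript length was set beside the differences. Lengths were available for 82 of the 84 members, as the principal transcript of each gene in the GENCODE annotation. The median quercetin difference was 0.18 log2 for the 28 members with transcripts of up to 642 nt, 0.09 for the 27 up to 1046 nt, and 0.03 for the 27 longer ones. Other genes that averaged 10 FPKM or more, ribosomal proteins left out, had medians of 0.09 (69 genes), 0.05 (326) and 0.00 (6127) in the same length classes. Without middle-aged control 1 the medians by length were 0.10, 0.08 and 0.01 for the members and 0.02, 0.00 and 0.00 for the other genes, so the difference was smaller but still largest in the shortest class. Across the 82 members, Spearman's rho between length and the quercetin difference was -0.51, as a description of genes that share the same 6 libraries, and -0.12 across 6522 other genes. Of the other genes, 6127 fell in the longest class, against 27 of the members, so these values cover unlike ranges of length.

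The relation with length differed between libraries. In middle-aged control 1, rho between length and the deviation from the gene's mean was 0.57 across members and 0.37 across other genes. In middle-aged control 2 it was 0.45 across members and -0.31 across other genes, so there the 2 sets of genes ran in opposite directions. The part of transcript length in the members' differences was not tested. With each library centred on 633 other genes with transcripts of up to 1000 nt, the median quercetin difference of the members was 0.06 log2. Atp5md (0.36 ± 0.07), Ndufa1 (0.40 ± 0.08) and Ndufa2 (0.30 ± 0.06) passed the test (SE, n = 3 each). Their limma adjusted p-values were 0.0151, 0.03228 and 0.0465. That fit called 35 of all genes tested in either direction, 3 of them members.

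**Figure D4:**
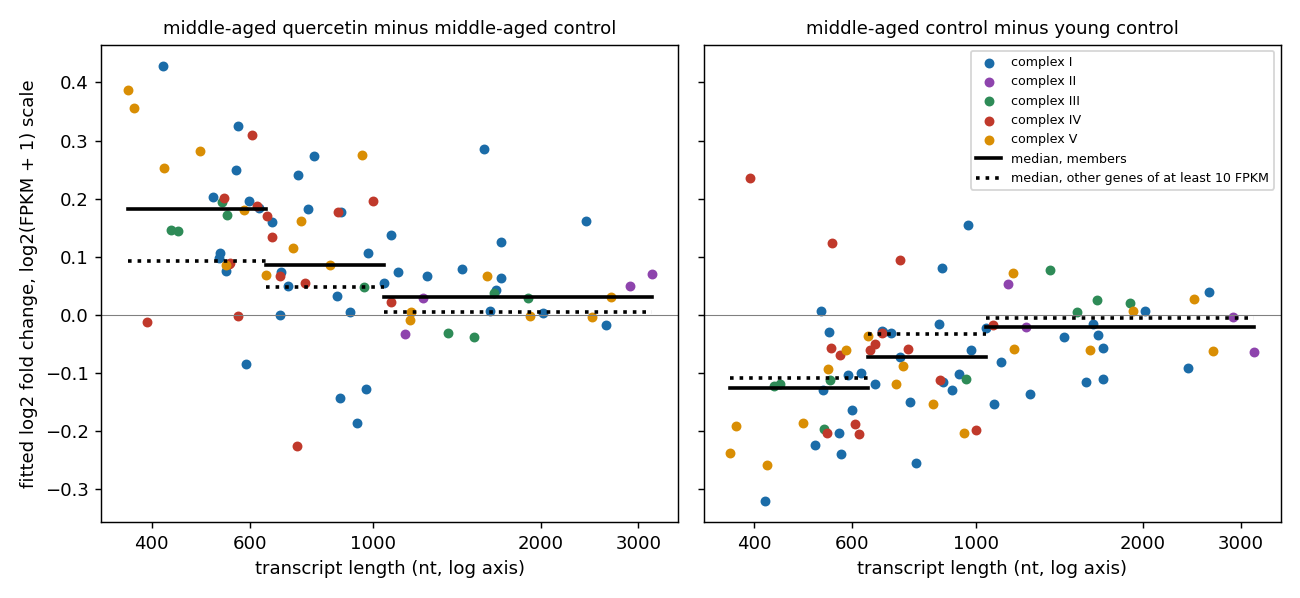
Fitted log2 fold change against transcript length (log axis) for 82 members coloured by complex, for middle-aged quercetin minus middle-aged control and for middle-aged control minus young control; solid lines are member medians in 3 length classes and dotted lines those of other genes averaging 10 FPKM or more. In the class of up to 642 nt the member medians are 0.18 and -0.13, and the medians of other genes 0.09 and -0.11.

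Middle-aged control against young control hippocampus asked what changed with age. Most fitted differences lay slightly below 0 and none passed the test. Of 84 members, 0 were called higher (0.0842% of all genes) and 0 lower (0.145% of all genes). At an unadjusted p under 0.05, 17 members were lower, against 6.63% of all genes, and 0 were higher, against 5.59% (limma). The fitted difference was below 0 for 68 members (81%, against 52.1% of all genes) and above 0 for 16 (19%, against 47.9%), with a median of -0.07 log2, against -0.00 over all genes. Without middle-aged control 1 the median was -0.03. In that fit 5 members (5.95%) were lower at an unadjusted p under 0.05, against 4.73% of all genes, and 0 were higher, against 4.31%, so the share lower was close to that of all genes. This comparison and the quercetin comparison share the middle-aged control libraries, so a low control library moves them in opposite directions.

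The values of 8 members were lower in all middle-aged control libraries than in all young libraries (9.52%, against 9.41% of all genes), and 0 were higher, against 8.81%. The share lower without overlap was thus close to that of all genes. The medians were -0.09 log2 for complex I, -0.01 for complex II, -0.11 for complex III, -0.06 for complex IV and -0.09 for complex V. Without middle-aged control 1 they were -0.03, 0.01, -0.03, -0.03 and -0.03, with that of complex II above 0. The 8 listed catalytic and cofactor-bearing subunits had a median of 0.02 with and without that library, and the 75 members not on the list one of -0.09, or -0.03 without it. By length class, the member medians were -0.13, -0.07 and -0.02, and those of other genes -0.11, -0.03 and -0.01. Without middle-aged control 1 they were -0.06, -0.03 and 0.00 for the members and -0.01, -0.00 and -0.00 for the other genes.

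Ndufa1 had 33.31, 39.25 and 47.92 FPKM in middle-aged control mice, against 48.75, 49.99 and 50.75 FPKM in young control mice. Its difference was the lowest of the members (-0.32 ± 0.10 log2, SE, n = 3 each; limma adjusted p = 0.2182). It was -0.20 ± 0.07 without middle-aged control 1 (limma adjusted p = 0.439). Without middle-aged control 3 it passed the test (-0.45 ± 0.06, limma adjusted p = 0.02546). That fit called 21 of all genes tested in either direction.

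Atp5e, the epsilon subunit in the central stalk of ATP synthase, had 67.27, 89.19 and 93.11 FPKM in middle-aged control mice, against 94.91, 108.01 and 93.79 FPKM in young control mice. The groups just missed each other, and the difference was -0.26 ± 0.11 log2 (SE, n = 3 each; limma adjusted p = 0.3584). Ndufc1, an accessory subunit of complex I, had 38.62, 52.65 and 51.92 FPKM in middle-aged control mice, against 55.13, 58.28 and 56.39 FPKM in young control mice (-0.25 ± 0.10 log2, limma adjusted p = 0.323). In both genes middle-aged control 1 stood well below the other libraries, and without it the differences were -0.11 ± 0.07 for Atp5e (limma adjusted p = 0.6814) and -0.11 ± 0.05 for Ndufc1 (limma adjusted p = 0.5616).

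Ndufb5, also an accessory subunit of complex I, had the smallest adjusted p of the age comparison. It had 70.9, 77.94 and 75.61 FPKM in middle-aged control mice, against 82.57, 84.62 and 82.62 FPKM in young control mice (-0.15 ± 0.04 log2, SE, n = 3 each; limma adjusted p = 0.157). Its groups did not overlap and all 3 control libraries were low. The highest fitted differences were those of Cox7a1 (0.24 ± 0.19, limma adjusted p = 0.6502), Ndufb4 (0.16 ± 0.08, limma adjusted p = 0.4892) and Cox6b2 (0.12 ± 0.16, limma adjusted p = 0.8085), all with overlapping groups.

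Middle-aged quercetin against young control hippocampus does not use the middle-aged control libraries for its difference, although they enter the estimate of the spread. Fitted differences were small in it. Of 84 members, 0 were called higher (0.0383% of all genes) and 0 lower (0.0383%). At an unadjusted p under 0.05, 1 was higher (3.41% of all genes) and 2 lower (2.89%), by limma. The median difference was 0.03 log2, against 0.00 over all genes, with 57 members above 0 (67.9%, against 51.6% of all genes) and 27 below (32.1%, against 48.4%). The standard errors of the members had a median of 0.07 log2, so shifts of this size in a single gene were not detectable. Without overlap, 9 members were higher (10.7%, against 6.45% of all genes) and 2 were lower (2.38%, against 5.82%).

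The members with the largest positive fitted differences were Ndufb1 (0.24 ± 0.12 log2, limma adjusted p = 0.7854), Cox7a1 (0.22 ± 0.19, 0.8849) and Cox6b2 (0.21 ± 0.16, 0.8622). Ndufb1 and Ndufv3, an accessory subunit beside the NADH site (0.17 ± 0.07, limma adjusted p = 0.7694), did not overlap between the groups. Ndufv3 had 45.73, 44.48 and 42.71 FPKM in middle-aged quercetin mice, against 36.11, 40.57 and 41.3 FPKM in young control mice, and 33.2, 35.39 and 40.24 FPKM in middle-aged control mice. The quercetin libraries were thus above all other libraries for this gene.

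The members lower without overlap were Ndufa4l2 and Ndufa6. Ndufa4l2 had 1.07, 1.33 and 0.92 FPKM in middle-aged quercetin mice, against 1.67, 1.61 and 1.42 FPKM in young control mice (-0.29 ± 0.10 log2, SE, n = 3 each; limma adjusted p = 0.6859). Ndufa6, an accessory subunit of the peripheral arm of complex I, had 56.99, 55.09 and 61.96 FPKM in middle-aged quercetin mice, against 66.68, 69.06 and 62.91 FPKM in young control mice (-0.19 ± 0.07, limma adjusted p = 0.7118). Cox4i2, whose groups overlapped, was the third lowest (-0.13 ± 0.16, limma adjusted p = 0.9225).

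The promoter strings were then set beside the differences. The 10 tested members with the NRF1 string had a median quercetin difference of 0.06 log2, and the 57 tested members whose window lacked it one of 0.11. The 5 members with the ETS string had a median of 0.09 and the 62 without it one of 0.10. The 7 members with the YY1 string had a median of 0.16 and the 60 without it one of 0.09. These medians include middle-aged control 1 and were not computed without it. Atp5k, printed above with the NRF1 string, had 93.37, 89.05 and 81.01 FPKM in middle-aged quercetin mice, against 55.26, 65.72 and 87.43 FPKM in middle-aged control mice. Its groups overlapped at a difference of 0.36 ± 0.15 (SE, n = 3 each; limma adjusted p = 0.3814), or 0.21 ± 0.14 without middle-aged control 1, and Sdhb, with the same string, differed by -0.03 ± 0.04 (limma adjusted p = 0.8189).

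No regulator of mitochondrial biogenesis passed the test. Of 17 listed, 16 were tested and 0 were called in any comparison. At an unadjusted p under 0.05, 0 were higher and 0 lower with quercetin, against 6.98% and 4.69% of all genes (limma). Nrf1 and Gabpa lay just above that cut, in opposite directions (limma unadjusted p = 0.05139 and 0.05143). With age 1 was lower, against 6.63% of all genes, and 0 were higher, against 5.59%. For quercetin against young 1 was higher, against 3.41%, and 0 were lower, against 2.89%. Ppargc1a, the coactivator that drives mitochondrial gene expression, averaged 8.75 ± 0.31 FPKM in middle-aged quercetin mice, 9.32 ± 0.43 FPKM in middle-aged control mice and 9.28 ± 0.23 FPKM in young control mice (SD, n = 3 each). Nrf1, the factor that binds the string above, averaged 6.21 ± 0.20, 6.88 ± 0.25 and 6.72 ± 0.43 FPKM in the same order. Gabpa, of GABP, averaged 9.16 ± 0.47, 8.21 ± 0.60 and 9.06 ± 0.56 FPKM. Yy1 averaged 16.97 ± 0.95, 16.95 ± 0.46 and 17.71 ± 0.20 FPKM. The quercetin differences of Nrf1, Gabpa and Yy1 were -0.13 ± 0.06, 0.14 ± 0.06 and 0.00 ± 0.05 log2 (SE, n = 3 each; limma adjusted p = 0.4337, 0.4337 and 0.9981). Esrra, an orphan nuclear receptor of energy metabolism, averaged 17.5 ± 1.8 FPKM in middle-aged control mice and 20.4 ± 0.67 FPKM in young control mice (SD, n = 3 each; limma adjusted p = 0.2443). It was the 1 gene of the list at an unadjusted p under 0.05 with age, and Esrrb did not pass the filter.

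Other mitochondrial lists had 0 called genes in the 3 comparisons as well. The 51 assembly factors of the complexes had a median quercetin difference of 0.03 log2. Of the 51, 9 were higher at an unadjusted p under 0.05, against 6.98% of all genes, and 1 was lower, against 4.69% (limma). The 17 enzymes of the TCA cycle had a median of 0.02, the 12 carriers and porins one of 0.00, the 22 import proteins one of 0.05 and the 78 mitochondrial ribosomal proteins one of 0.01. The 16 glycolytic enzymes had a median of 0.00. Without middle-aged control 1 the medians of these 6 lists lay between -0.03 and 0.02. The 82 tested cytosolic ribosomal proteins, which have no mitochondrial role, had a median of 0.07 with quercetin and -0.07 with age. Both medians were nearer 0 without middle-aged control 1, at 0.02 and -0.01. Of the 82, 19 were higher with quercetin at an unadjusted p under 0.05, against 6.98% of all genes, and 0 were lower, against 4.69% (limma). Their median deviation in middle-aged control 1 was -0.18 log2, beside -0.15 for the OXPHOS members.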

How the data were processed

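RNA-seq of the hippocampus gave 9 libraries, 3 per group, with groups and replicate numbers taken from the sample titles. The authors deposited FPKM values with 2 decimals. The submitters' processing notes list TopHat2 and Cufflinks with the build GRCm38, whereas the paper's methods list HISAT2, Bowtie2 and RESM. The program behind these FPKM is therefore uncertain. The strand setting of the counting is not given either, so reads of overlapping or antisense genes may be shared.

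The deposited FPKM were put on the scale log2(FPKM + 1), and genes reaching 1 FPKM in 3 or more libraries (13062) were kept. One limma model (version 3.58.1 in R 4.3.3, moderated variances with a trend) held the 9 libraries and gave 3 contrasts. The threshold was a Benjamini-Hochberg adjusted p under 0.05 across all kept genes. The fit was tested on simulated data in which genes varied independently and changed by more than the member medians here. That test does not bear on small shifts shared by many members. The paper names no gene-wise test for RNA-seq. Members are described by counts and medians, with no test over the list. One member is counted among the 84 but is not reported here by name. The members, gene lists and named genes were chosen with earlier results of these data known. For each comparison the 3 highest and 3 lowest members, up to 2 without overlap in each direction, isoforms, catalytic subunits and biogenesis regulators were named. Ndufb5, Ndufa2, Ndufs8, Ndufv2, Atp5k and the members in the printed promoters were chosen after their values were seen.

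Transcript lengths are those of principal transcripts in the GENCODE M21 annotation, a definition chosen after a first one gave implausible lengths. Promoters and gene positions are from RefSeq GRCm38.p6. Alternatives were a pseudocount of 0.1, other filters, median-of-ratios and upper-quartile scaling, 6 libraries, a replicate block, robust or untrended limma and each library left out. Leaving out both libraries with choroid plexus transcripts and centring on genes with short transcripts were added after seeing the data. Figures were drawn with matplotlib 3.10.9.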

Additional observations from a re-analysis of the deposited data

How the results depend on the processing

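The median difference of the members kept its sign under all 20 alternatives, from 0.05 to 0.12 log2 with quercetin, -0.10 to -0.02 with age and 0.01 to 0.05 for quercetin against young. Calls of members were 0 under most. With quercetin, leaving out 1 library gave 0 to 3 members called higher (Ndufa1, Atp5md and Ndufb1 without middle-aged control 3), centring on genes with short transcripts gave 3, and the replicate block gave 1 (Ndufa2, 0.33 ± 0.04, limma adjusted p = 0.03937). Over all genes tested, in either direction, the quercetin calls were 10 without middle-aged control 3, 35 with centring and 13 with the replicate block. With age, leaving out 1 library gave 0 to 1 members called lower. The 1 was Ndufa1 without middle-aged control 3, where 21 of all genes tested were called. The replicate numbers did not pair the libraries, with correlations of same-numbered deviations from -0.20 to 0.12.

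Counts over all genes moved more. With age, 30 genes were called, against 17 with no filter, 66 at a mean of at least 5 FPKM, 17 without a trend, 9 without both libraries with choroid plexus transcripts and 12 to 47 with 1 library left out. With quercetin, 22 were called, against 1 with no filter, 14 in 6 libraries, 13 with the replicate block, 2 without a trend, 1 without both choroid plexus libraries, 35 with centring on short transcripts and 3 to 29 with 1 library left out. For quercetin against young, 10 were called, against 4 with no filter, 4 in 6 libraries, 6 with the replicate block, 4 without both choroid plexus libraries, 28 with centring and 4 to 7 with 1 library left out. The causes were not tested. Centring on genes with short proteins was not run, since no protein table was used here. With 3 libraries per group and an unknown depth, member shifts of 0.1 log2 are of the order of a typical standard error (median 0.07, range 0.03 to 0.23).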

Other observations

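Within all 3 groups the members varied more than other genes, with the widest gap in the middle-aged control libraries. That group includes middle-aged control 1, and its spread was not computed without this library. The median SD of log2(FPKM + 1) over 84 members was 0.063 in middle-aged quercetin, 0.097 in middle-aged control and 0.068 in young control libraries, against 0.057, 0.056 and 0.051 over 6734 other genes that averaged 10 FPKM or more. Young control 2 was the library with the highest value for 21 of the 84 members, against 1624 of all 13062 genes. Middle-aged quercetin 3 was highest for 27 members, against 1541 of all genes. The members farthest below the other 8 libraries in middle-aged control 1 were Ndufa1 (-0.56 log2), Atp5k (-0.54), Ndufc1 (-0.52) and Atp5e (-0.52), and those above them included Ndufa4l2 (0.15) and Ndufs1 (0.06).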
